A study of Mus musculus with 4 samples.

Results

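The outer dynein arm chain genes are the 9 mouse genes that encode the motor and its subunits on the outer side of the ciliary and flagellar doublet microtubules: the heavy chains Dnah5, Dnah8, Dnah9, Dnah11 and Dnah17, the intermediate chains Dnaic1 and Dnaic2, and the light chains Dnal1 and Dnal4. They were chosen by gene identity out of 21938 protein-coding genes annotated by GENCODE on the autosomes, X and Y, and all 9 were found there. No measured value entered the rule, but earlier results of these data were known when the genes were chosen. Binding of RFX2 near them was read from ChIP-Seq peak lists, in which chromatin recovered with an anti-RFX2 antibody is sequenced and regions richer in reads than the input chromatin are listed as peaks. The labels give the 4 samples, 2 RFX2 immunoprecipitations and 2 inputs, as testis of wild type mice on a mixed background of C57BL/6, 129/Sv and FVB/N at 29 to 30 postnatal days. The study's text instead describes germ cells dissociated from the testes of younger wild type mice, so the age and the preparation of the chromatin are uncertain. Experiments 1 and 2 are called replicates 1 and 2 here; the labels do not say whether they came from different animals, and no Rfx2-deficient chromatin is among the samples.

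The outer arm is the main power stroke motor of motile cilia and sperm flagella. Each heavy chain carries an ATPase motor head, the intermediate chains lie at the base that docks onto the doublet, and light chains bind to heavy or intermediate chains. The same arm is built from different heavy chains in different cells: Dnah5, Dnah9 and Dnah11 are known from airway cilia and are called airway-type here, whereas Dnah8 and Dnah17 are known from the sperm tail and are called sperm-type. RFX2 belongs to the Regulatory Factor X family, which acts at ciliary genes through the X-box, an inverted repeat whose arms are GTTGCC and GGCAAC. At either age the testis holds meiotic germ cells and haploid ones, at the younger age no more than very early round spermatids, and the comparison asks which versions of the motor had RFX2 at their promoters there. Testis and dissociated germ cells are both mixtures of cell types, so fewer cells with an occupied site and weaker occupancy per cell cannot be told apart, and peak lists hold no expression values with which the cell types could be checked.

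Sequences under the peaks are shown first, picked by different searches. They are from GRCm38.p6, 5′ to 3′ on the strand named, with 8 bases on either side of the match and the match in capitals. The first 3 are the best matches to the 14-base palindrome GTTGCCATGGCAAC in the peaks of the combined list at Dnah5, Dnah11 and Dnal4; the other 3 are the best pairs of arms with 0 to 3 bases between them in the promoter peaks of Dnaic2, Dnaic1 and Dnah9.
Dnah5, chr15:28196604-28196633, plus strand: cagcttccGTTGCCAAGGCAACactgtttt
Dnah11, chr12:118198949-118198978, minus strand: gggcagccATCTCCCTGGCAACgggacgcg
Dnal4, chr15:79774423-79774452, minus strand: ccgtgatgGTTGCTAAGACACTctggctcg
Dnaic2, chr11:114727378-114727406, plus strand: cggccaggGTTGCTAGGCAACtggtaaac
Dnaic1, chr4:41569767-41569795, plus strand: gcctgtcgGTTGCTGGGTAACcgcgtcag
Dnah9, chr11:66168613-66168641, minus strand: ttccaccaGTTTCCCAGCAACaacgacgc
The Dnah5 match lies 7148 bp upstream of the RefSeq start and keeps both arms intact. The other 5 lie between 76 bp upstream and 80 bp downstream of their starts, and each has at least 1 base that departs from the arms. The last 3 genes are those whose promoter peaks held a pair of arms with at most 2 mismatches over 12 bases. The best pairs at Dnah11 and Dnal4 had 3 mismatches. Dnal1 is not shown: its promoter peaks had at best 5 mismatches to the palindrome and 4 to the spaced arms.

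The replicate 1 list held 39825 peaks, the replicate 2 list 21274 and one further list 2726. The latter is called the combined list; it is attached to replicate 2, but its peak names begin with "all". The study's methods describe a list of peaks reproducible between both replicates by the irreproducible discovery rate (IDR), of nearly but not exactly the same size, and do not say whether the combined list is that list. It may rest on both replicates and is not taken as independent of them. Scores are on a −log10 scale, spanning 2.03 to 475 in replicate 1 and 2.08 to 266 in replicate 2, and the combined list gives a −log10 p between 43.2 and 493. Read depth per library cannot be read from peak lists and is unknown here, so scores of the lists are set side by side and not averaged. With 1 list per experiment and a yes or no call per gene, no test across samples was available, and the values below are descriptions.

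A promoter was taken as 1000 bp upstream to 500 bp downstream of any annotated transcription start site (TSS), and a peak was counted there with an overlap of at least 1 bp. Of the 9 members, 6 had a promoter peak in replicate 1, beside 14.0% of all 21938 genes, and 7 had one in replicate 2, beside 11.3% of all genes. The 6 genes with a peak in both replicates were Dnah9, Dnah11, Dnaic1, Dnaic2, Dnal1 and Dnal4, which is 66.7% of the members against 9.05% of all genes. The combined list held only 2 of the 9, Dnah11 and Dnal4 (22.2%, beside 5.26% of all genes). The remaining 4 replicated genes had peaks in both replicates but none in the combined list, a pattern found for 3.86% of all genes. Dnah5 and Dnah17 had a promoter peak in no list, as did 83.8% of all genes, and the replicate 2 peaks of Dnah8 did not lie at its main start.

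**Figure D1:**
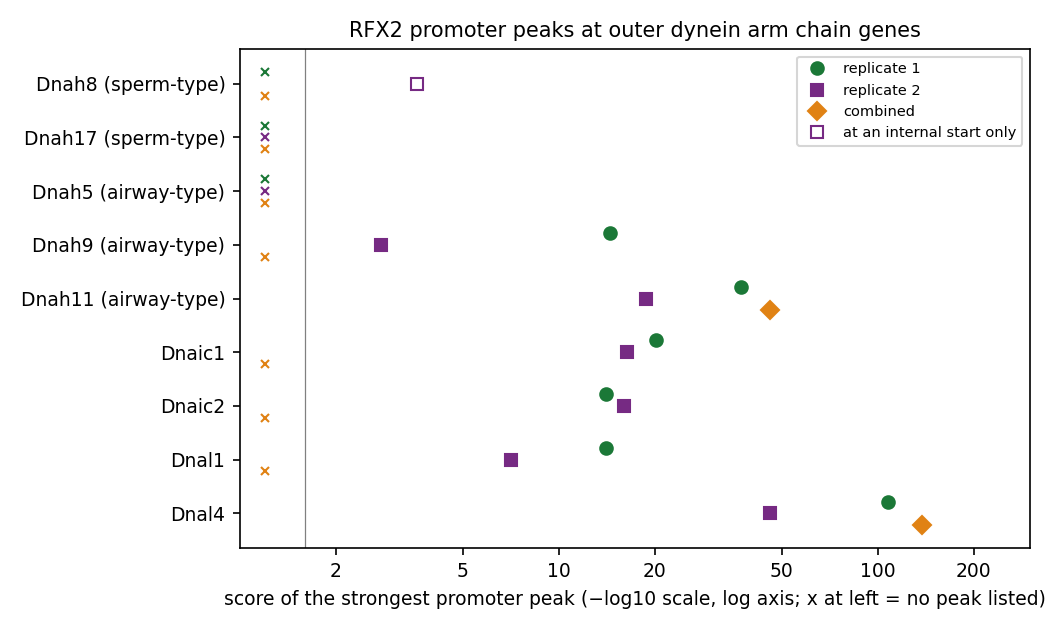
Score of the strongest promoter peak of each member (log axis of a −log10 scale) in replicate 1 (circles), replicate 2 (squares) and the combined list (diamonds); crosses at the left mark lists with no promoter peak. Dnal4 lies highest in every list, Dnah17 and Dnah5 have crosses only, and the open square of Dnah8 stands for a peak of 3.60 at an internal start.

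The light chains held both the strongest site and one of the weaker sites. Dnal4 encodes a light chain of the outer arm, and its promoter peak scored 108 in replicate 1 (rank 584 of 39825) and 46.1 in replicate 2 (rank 584 of 21274). In the combined list its peak at chr15:79774252-79774841 reached a −log10 p of 138, rank 589 of 2726, and was enriched 22.6-fold over background, with the summit 29 bp downstream of the RefSeq start. Dnal4 is transcribed from the minus strand and spans 16.4 kb; its most upstream coding start lies at 79776972, and the peak lies at the start at 79774467 that RefSeq uses. Dnal1 encodes a leucine-rich light chain known to bind a heavy chain. Its promoter peak scored 14.1 in replicate 1 (rank 6287) and 7.09 in replicate 2 (rank 5631), below Dnal4 in both.

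A far stronger peak stood beyond the other end of Dnal1. It began 568 bp past the last base of the gene in the combined list (chr12:84148066-84149276, −log10 p 259, rank 94) and scored 261 in replicate 1 and 118 in replicate 2. Its centre was 182 bp from a start of Pnma1, which encodes a paraneoplastic antigen, so this peak is at the promoter of the neighbour. Nearest-peak assignment in the combined list would give Dnal1 this site 33.7 kb from its own start.

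Both intermediate chain genes had a peak over their starts in each replicate, with close scores. Dnaic1 scored 20.2 in replicate 1 (rank 4500) and 16.4 in replicate 2 (rank 2087). Its peaks also lay in the promoter of the divergent gene Fam219a, and the centre in replicate 1 was 118 bp from a Fam219a start, so these lists cannot assign the site to one of the 2 genes. Dnaic2 scored 14.1 in replicate 1 (rank 6287) and 16.0 in replicate 2 (rank 2246), with centres 10 bp upstream of the RefSeq start and at it; replicate 2 listed another, weak peak of 2.96 centred 575 bp upstream. Dnaic2 was the only replicated member that scored higher in replicate 2. Neither gene had a combined peak nearby: the nearest lay 104 kb upstream of Dnaic1, at Kif24, which encodes a kinesin, and 1440557 bp from Dnaic2, at Fbf1, which encodes a transition fibre protein.

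Among the airway-type heavy chains, 2 of 3 had a promoter peak in each replicate and 1 of 3 in the combined list. The shares of all genes were 14.0% in replicate 1, 11.3% in replicate 2 and 5.26% in the combined list. Dnah11 encodes an outer arm heavy chain known from the proximal part of airway cilia. Its peak scored 37.2 in replicate 1 (rank 2463) and 18.8 in replicate 2 (rank 1911), and replicate 1 also listed a weak peak of 3.64 centred 708 bp upstream. In the combined list the peak at chr12:118198727-118199384 reached a −log10 p of 45.9 and was enriched 9.03-fold, with the summit 80 bp downstream of the start. At rank 2605 of 2726 it stood close to the lower end of that list, whose lowest value was 43.2. Dnah9, the heavy chain of the distal outer arm of airway cilia, had a peak over its start in both replicates, but with unequal scores of 14.5 in replicate 1 (rank 6194) and 2.77 in replicate 2 (rank 20828 of 21274).

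Dnah5, the outer arm heavy chain present along the whole airway cilium, differed from both. None of the 3 lists had a peak in its promoter at 28203752, the sole start GENCODE gives, yet each list had a peak centred about 7.2 kb upstream. That site scored 78.0 in replicate 1 (rank 1017) and 25.6 in replicate 2 (rank 1325). The combined peak at chr15:28196003-28197069 reached a −log10 p of 100.5 (rank 1026) and was enriched 25.9-fold, so its fold exceeded that of Dnal4. RefSeq also annotates a Dnah5 start at 28154854, 48.9 kb upstream of the GENCODE start, and the combined peak lies between that start and the GENCODE one. Whether the peak falls in an intron or an exon of that longer model was not examined. At this distal start replicate 1 had a peak of 9.09 (chr15:28154648-28154963) and replicate 2 one of 2.96 (chr15:28154871-28155137), while the combined list had none. Counting RefSeq starts therefore gave 7 of 9 members in each replicate, with Dnah5 added and Dnah8 absent.

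Of the sperm-type heavy chains, 0 of 2 had a promoter peak in replicate 1 and in the combined list, and 1 of 2 in replicate 2. The shares of all genes were 14.0% in replicate 1, 5.26% in the combined list and 11.3% in replicate 2, so most genes have no promoter peak either. Dnah17, on the minus strand of chr11:118021723-118130634, had no peak anywhere in its 108.9 kb in any list. Its nearest peak in replicate 2 lay 118 kb upstream with a score of 4.93, and the nearest in the combined list 165 kb downstream, where the closest gene was Socs3, which encodes a suppressor of cytokine signalling. Dnah8, on the plus strand of chr17:30624354-30877365, had no peak over its main start. Its nearest peak to the RefSeq start was 7.68 kb upstream in replicate 1 with a score of 4.33 and 17.6 kb upstream in replicate 2 with a score of 4.03. The nearest combined peak lay 35.5 kb upstream (chr17:30590300-30591445, −log10 p 301, rank 46), and its closest gene was Glo1, which encodes glyoxalase 1. The promoter call of Dnah8 in replicate 2 rested on 4 peaks of 2.42, 3.60, 3.49 and 2.70 at starts of retained-intron transcripts, centred between 43440 and 219229 bp downstream of the RefSeq start. None of those 4 stood in the upper 90% of the replicate 2 list by rank, since the best ranked 19166 of 21274.

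The sperm-type chains thus had 0 of 2 and the airway-type chains 1 of 3 in the combined list, a difference of a single gene, beside 5.26% of all genes. With 2 genes against 3 no permutation of the labels could give a one-sided p below 0.1, and genes are not replicates of a condition. Leaving Dnah8 aside, since its 4 peaks are at internal starts, the contrast in the replicates was 0 sperm-type chains against Dnah9 and Dnah11. In the upper 50% of each list Dnah9 had no replicate 2 peak, which left Dnah11 alone in both replicates. With promoters of 2000 bp on each side of a start, Dnah8 also had a replicate 1 peak at an internal start, so that the sperm-type chains had 1 of 2 in each replicate. The intermediate and light chains, which both kinds of arm are known to share in part, had promoter peaks in both replicates at 4 of 4 genes, beside 9.05% of all genes.

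**Figure D2:**
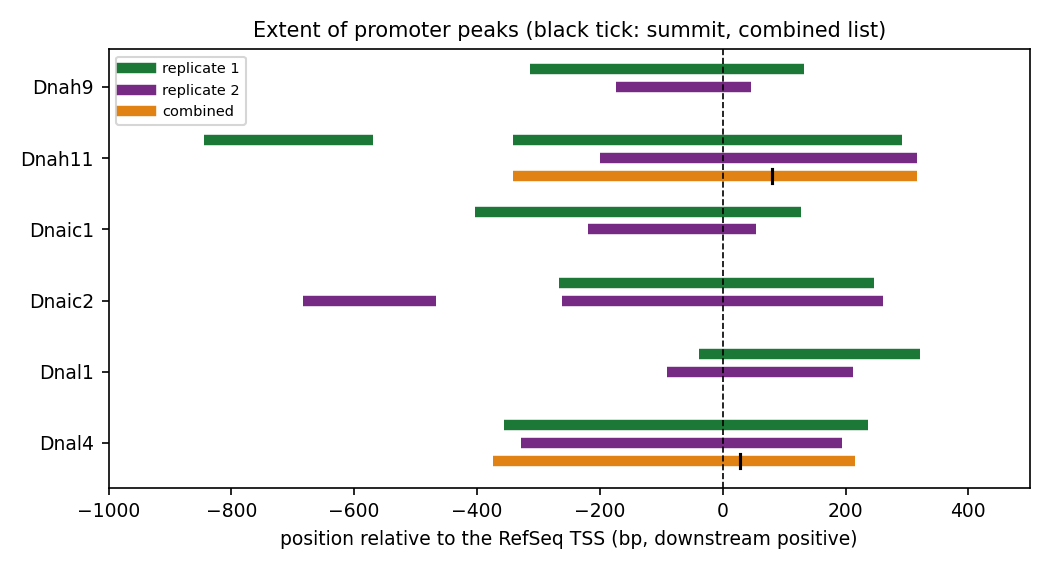
Extent of the promoter peaks of the 6 replicated members relative to the RefSeq start (horizontal axis in bp, downstream positive) in replicate 1, replicate 2 and the combined list, with black ticks at the combined summits. Every gene has a peak across the start in both replicates, and the summits of Dnah11 and Dnal4 lie 80 and 29 bp downstream.

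The 6 replicated members were then placed among the 1777 replicate 1 promoter peaks that met a replicate 2 peak. The median ratio of the replicate 1 to the replicate 2 score was 1.95 over these peaks. The members had ratios of 0.88 at Dnaic2, 1.23 at Dnaic1, 1.98 at Dnah11, 1.99 at Dnal1, 2.34 at Dnal4 and 5.23 at Dnah9. Dnah9 thus departed most from the median, and its replicate 2 score ranked 1767 of 1777. By replicate 1 score, Dnal4 ranked 311, Dnah11 899, Dnaic1 1237, Dnah9 1394 and both Dnaic2 and Dnal1 1409 of 1777.

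The replicate 1 score separated the members in and out of the combined list much as it did the other genes. Among the 100 shared peaks nearest in replicate 1 score, 100% were in the combined list around Dnal4, 80% around Dnah11, 3% around Dnaic1 and 0% around Dnaic2, Dnal1 and Dnah9. By replicate 2 score the shares were 100%, 63%, 58%, 55%, 6% and 3% in that order of genes. Dnaic1 and Dnaic2 had replicate 2 scores at which over 50% of sites entered the combined list, but their replicate 1 scores were in a range where almost no site did.

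**Figure D3:**
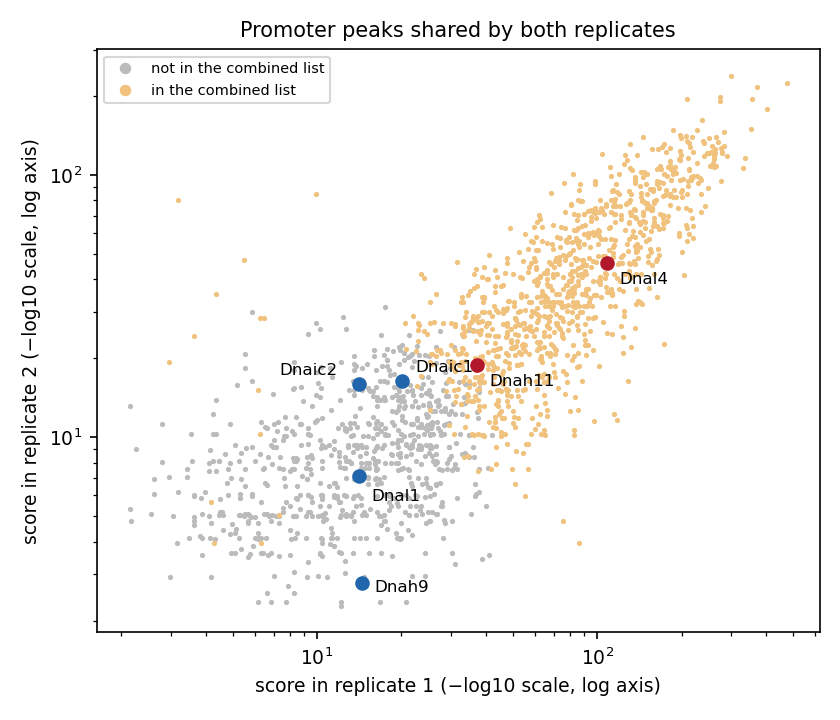
Scores of the 1777 shared promoter peaks in replicate 1 (horizontal, log axis) and replicate 2 (vertical, log axis), grey where absent from the combined list and orange where present, with the 6 members as large points, red if in the combined list and blue if not. Dnal4 lies inside the orange cloud, Dnah11 at its lower edge, and Dnah9 near the bottom at 14.5 and 2.77.

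The palindrome was searched on both strands with at most 3 mismatches over its 14 bases. It was found in 0 of the 2 combined promoter peaks of the members, whereas 60.6% of all 1003 combined promoter peaks held one. Among the 1777 replicate 1 promoter peaks that met a replicate 2 peak, 52% held one, against 0 of those at the 6 replicated members. The other replicate promoter peaks of the members, among them those of Dnah8 at internal starts, also held none. The best match at Dnah11, shown above, covered the summit and differed by G1A, T3C, G4T and A7C, where position 1 is the 5′ base of the palindrome. Its right arm GGCAAC was intact. The best match at Dnal4 lay 1 bp from the summit and differed by C6T, T8A, G10A, A13C and C14T, which leaves 9 of the 14 bases and neither arm intact. The strongest promoter site of the members was thus, of these 2, the one with the poorer match.

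Among the peaks searched at the members, the upstream Dnah5 peak was the only one with a match of at most 3 mismatches. Its sequence differed from the palindrome by T8A alone, in the centre between the arms, and lay 1 bp from the summit. Among all combined promoter peaks, 9.87% held a match with at most 1 mismatch. The Dnah5 peak is not a promoter peak by the definition used, and the share among combined peaks outside promoters was not counted. Of the RefSeq promoters, taken from 250 bp upstream to 50 bp downstream of 20150 starts, 3.33% held the palindrome with at most 3 mismatches. The palindrome was held by 0 of the 9 member promoters, each taken at 1 RefSeq start, which need not be the most upstream.

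Arms set 0 to 3 bases apart, with at most 2 mismatches over their 12 bases, were searched after the first matches had been seen. Such a pair was present in the replicated peaks of Dnaic2, Dnaic1 and Dnah9, in each case with a spacer of 1 base in place of the palindrome's central 2. The pair of Dnaic2 had 1 mismatch and was centred 27 bp upstream of the RefSeq start; those of Dnaic1 and Dnah9 had 2 mismatches and were centred 13 and 76 bp upstream. No such pair was found in the promoter peaks of Dnah11, Dnal1 or Dnal4, or in the RefSeq promoters of Dnah8, Dnah17 and Dnah5. A pair occurred in 68.5% of combined promoter peaks, in 60.9% of the shared promoter peaks and in 6.7% of RefSeq promoters, and 3 of the 6 replicated members held one. A match is a run of letters and does not show which bases RFX2 touched.

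The bases upstream of a RefSeq start of Dnaic2, a promoter with a peak in both replicates but not in the combined list, and of Dnah17, the heavy chain gene with no peak, are set beside each other below. The Dnah17 start used, at 118129219, lies inside the gene. The most upstream coding start of Dnah17 is at 118130634, and RefSeq annotates another at 118130719. RefSeq also annotates a Dnaic2 start further upstream, at 114721341, so neither stretch precedes the most upstream annotated start. Each is the 250 bases before the RefSeq start in GRCm38.p6, 5′ to 3′ on the gene's strand; capitals mark the spaced arms in Dnaic2 and, in Dnah17, one of 2 equally good matches to the palindrome, with 4 mismatches.
Dnaic2, chr11:114727169-114727418, plus strand: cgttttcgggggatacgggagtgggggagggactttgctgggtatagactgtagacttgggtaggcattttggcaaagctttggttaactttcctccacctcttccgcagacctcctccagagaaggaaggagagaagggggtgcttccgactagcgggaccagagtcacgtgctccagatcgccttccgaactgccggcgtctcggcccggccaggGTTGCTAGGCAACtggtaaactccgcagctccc
Dnah17, chr11:118129220-118129469, minus strand: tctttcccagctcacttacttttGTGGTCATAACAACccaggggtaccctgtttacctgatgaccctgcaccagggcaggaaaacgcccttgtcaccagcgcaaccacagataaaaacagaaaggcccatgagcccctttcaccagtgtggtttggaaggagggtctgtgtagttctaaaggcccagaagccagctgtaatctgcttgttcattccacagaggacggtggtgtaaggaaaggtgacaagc
The match of Dnah17 departs by T3G, C5T, G9A and G10A, and a match with at most 4 mismatches occurred in 11.8% of RefSeq promoters. The capitals come from different searches, so they do not rank the 2 promoters. By the palindrome the best match had 5 mismatches in the Dnaic2 promoter and 4 in that of Dnah17. By spaced arms Dnaic2 had 1 mismatch and Dnah17 had 3, at an unmarked place centred 152 bp upstream. The G+C content of the RefSeq promoters ran from 42.7% at Dnah5 to 67.0% at Dnaic1, and the sperm-type chains, at 60.3% for Dnah8 and 50.7% for Dnah17, fell inside that range.

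The bodies of the heavy chain genes, which are among the longest genes of the axoneme, were also read for peaks. Dnah8 held 22 peaks in replicate 2 and 4 in replicate 1, or 8.70 and 1.58 peaks per 100 kb. Over 2492 protein-coding genes of at least 100 kb the median was 0.85 in replicate 2 and 1.69 in replicate 1. Dnah8 was first of the 2492 genes in replicate 2, ahead of Mbp at 5.43, and ranked 1361 in replicate 1. The 22 peaks scored between 2.23 and 5.94, only 3 stood in the upper 50% of the list, and just 1 was met by a replicate 1 peak. They ran from 24.2 to 249 kb downstream of the RefSeq start, with a median gap of 9.35 kb, and had a median width of 185.5 bp against 181 bp for the whole list. Flanks of the same length, 253 kb, held 12 replicate 2 peaks upstream and 6 downstream. These are fewer than in the gene, but both lie above the long-gene median of 0.85 per 100 kb. The excess was thus not confined to the gene, and inside it was one of low-scoring entries in a single list, nearly all unmet by the other replicate.

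**Figure D4:**
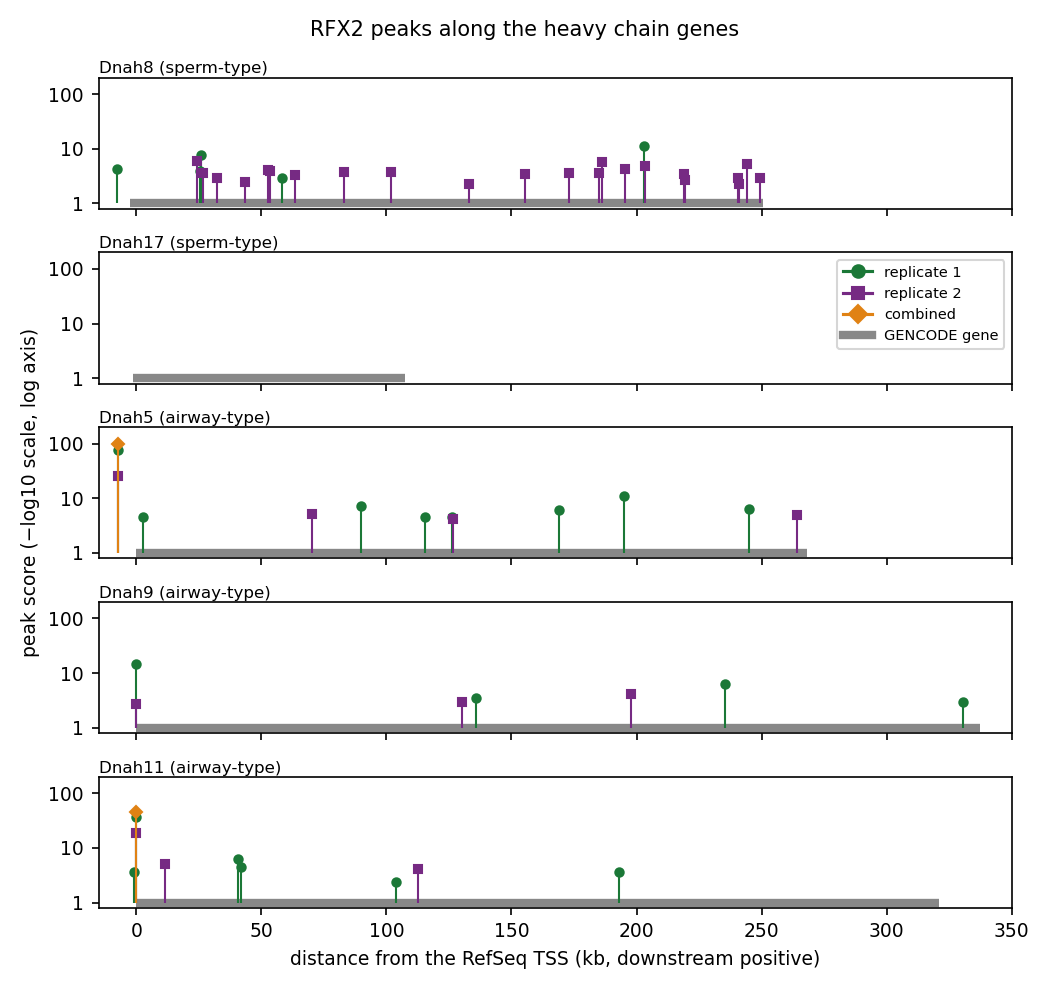
Peaks along the 5 heavy chain genes, as distance from the RefSeq start in kb (horizontal) and score (vertical, log axis of a −log10 scale), with the gene as a grey bar. Dnah8 is strewn with replicate 2 peaks below 6, Dnah17 has none, and Dnah5 and Dnah11 have one tall peak in each list, 7.2 kb upstream of the start and at the start.

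The other heavy chain genes showed no such density. In replicate 2, Dnah5 and Dnah11 held 3 peaks each, or 1.12 and 0.93 per 100 kb, Dnah9 held 3, or 0.89, and Dnah17 held 0. In replicate 1 they held 7, 5, 4 and 0 peaks. Inside the 5 genes the sole combined peak was that at the Dnah11 start.

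**Figure D5:**
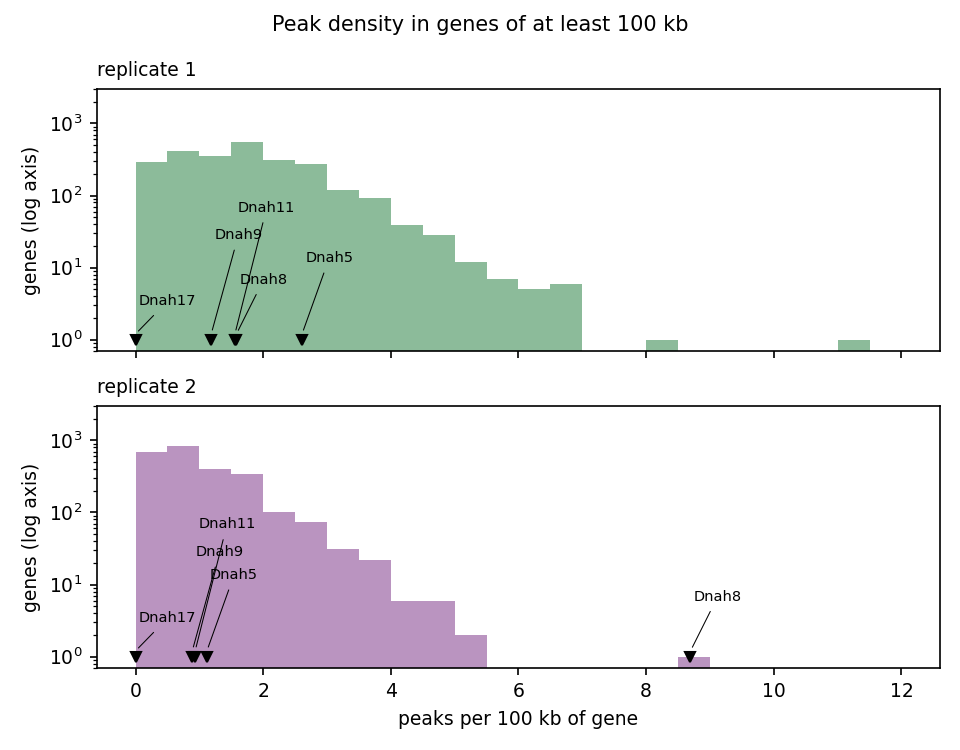
Number of genes (log axis) by peaks per 100 kb of gene, over 2492 genes of at least 100 kb, in replicate 1 (top) and replicate 2 (bottom), with triangles at the 5 heavy chain genes. Dnah8 stands alone at 8.70 in replicate 2 and near the median at 1.58 in replicate 1.

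Genes that build or dock the arm, and dyneins of other places, were counted in the same way from lists of known function. Of 14 assembly factors, which fold and preassemble dynein arms in the cytoplasm, 12 had a combined promoter peak (85.7%) and 13 had peaks in both replicates. The highest combined values were 265 at Cfap298 (rank 87) and 229 at Lrrc6 (rank 159). Of 6 outer arm docking genes, whose products anchor the arm on the doublet, 4 had a combined promoter peak, led by Ccdc151 at 196 and Armc4 at 96.7, and Ccdc114 and Ccdc63 had none in any list. Of 11 inner arm chains, 2 were in the combined list, Dnah10 at 171 and Dnah14 at 57.9, and 6 were in both replicates. For the near-identical Dnah7a, Dnah7b and Dnah7c, reads that map to more than 1 place were discarded by the authors, so their values are uncertain.

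The outer arm chains, at 2 of 9 in the combined list and 6 of 9 in both replicates, stood nearer to the inner arm chains than to the assembly factors by these counts. Of 9 light chains shared between dyneins, 2 had a combined promoter peak, Dynll1 at 136 and Dynlrb2 at 56.4, and of 5 cytoplasmic dynein-1 genes, which carry cargo along microtubules, 0 had a promoter peak in any list. The highest member, Dnal4 at 138, lay between Dynll1 and Dnah10 in the combined list.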

How the data were processed

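RFX2 ChIP-Seq libraries and inputs from mouse testis were sequenced and processed by the authors. Per the labels and methods, reads were demultiplexed with CASAVA 1.8.2 and mapped to GRCm38 (Ensembl 70) with Bowtie 0.12.7, multi-mapping reads were discarded, and peaks were called against input with MACS2 2.0.10.20130520; peaks reproducible between replicates were then selected by IDR. Replicate 2 was sequenced in 2 runs, with human-mapping reads taken out of the second. The deposited replicate lists give 1 value per peak on a −log10 p-value or q-value scale, which of them is not stated. The deposited combined list has 10 columns, among them a score (the whole part of 10 times the −log10 p-value), the fold enrichment (a ratio), the −log10 p-value, the −log10 q-value and the summit. Whether it is the IDR selection is not stated. A peak missing from a list may fall under its threshold, and discarded multi-mapping reads leave repeats blank.

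Peaks were compared with GENCODE M21 genes (every annotated transcript start) and RefSeq promoters of GRCm38.p6, with Python 3.11.15, pandas 2.3.3 and pyfaidx 0.9.0.4; positions are 1-based. Promoter calls and motif searches were checked on simulated data. All 9 members, the genes sharing or nearest to their peaks, and the 2 highest combined genes of each list were named. The members and lists were chosen with earlier results of these data known. Alternatives were other promoter windows, a single coding start, peak centres, the upper 50% of each list, other mismatch limits and 200 bp windows; RefSeq starts, spaced arms and other gene lengths were added after the data were seen. Inputs have no list of their own and entered only through peak calling. No gene or region was tested between groups.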

Additional observations from a re-analysis of the deposited data

How the results depend on the processing

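The number of members with a combined promoter peak was 2 and fell to 1 when only the most upstream coding start was used, which leaves out the start of Dnal4 that carries the peak, and to 1 in the upper 50% of the list, which leaves out Dnah11. That upper part also took the airway-type chains from 1 to 0. The palindrome was held by 0 of 2 combined member peaks and by 1 with at most 4 mismatches. The other 39 of 43 alternative values that answer a comparison stayed within 1.5 times. Peaks in both replicates were found at 6 members, and taking 1 replicate list alone gave 6 to 7. The most upstream coding start gave 5, without Dnal4, and the upper 50% of each list gave 5, without Dnah9. RefSeq starts gave 7, with Dnah5 added, and promoters of 2000 bp each side gave 7, with Dnah8 added. Of 56 alternative values for single genes, 8 moved: those of Dnah8 with these wide promoters, the most upstream coding start, the upper 50% and RefSeq starts, its rank below, Dnah5 with RefSeq starts, Dnah9 in the upper 50% and Dnal4 with the most upstream coding start. Sperm-type chains had 0 combined promoter peaks under every promoter setting run. Among genes of at least 50 kb Dnah8 ranked 3 by replicate 2 peaks per 100 kb, after Sfi1 and Usp30, and among genes of at least 200 kb it ranked 1. No paired analysis was possible because no result came from a test. The lists carry no read depth, so absence from a list limits no occupancy.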
